A study of Homo sapiens with 5 samples.

Results

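Stratified epithelial keratins and TP63 were followed across 5 established human pancreatic cell lines, each measured on 1 one-colour expression array. The set was named by gene: KRT5, KRT6A, KRT6B, KRT13, KRT14, KRT15, KRT16, KRT17, KRT81 and TP63. Of these 10 genes, 5 had a probe set annotated to that gene alone, out of 19775 genes with such a probe set. These were KRT5, KRT13, KRT14, KRT15 and KRT16, with 1 probe set each, so that every difference below rests on a single probe set. KRT6A, KRT6B, KRT17, KRT81 and TP63 had none in the annotation used and were not analysed here. The lines were PANC1, HPAF1, SU86.86 and L3.6, all from pancreatic carcinomas, and HPDE, known in the field as pancreatic duct epithelium immortalised with papillomavirus oncogenes. Their labels put all 5 under pancreatic cancer and give neither the origin of HPDE nor a genotype, a passage or the clone. No treatment is given, and all were grown in culture as the supplier of the lines recommends. No line had a second culture or array, so no level carries an error of its own.

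Keratins are the intermediate filament proteins of epithelial cells, and each filament pairs a type I with a type II keratin. In stratified epithelia such as skin, basal cells pair the type II keratin KRT5 with the type I keratin KRT14 or KRT15. KRT13 is the type I keratin of the layers above the basal layer in moist epithelia such as oral mucosa and oesophagus, and KRT16 is a type I keratin of wounded or activated keratinocytes. TP63 encodes p63, the transcription factor of the p53 family that maintains basal cells and is known to activate KRT5 and KRT14. Normal pancreatic ducts are lined by a simple epithelium, whose keratins are chiefly KRT7, KRT8, KRT18 and KRT19.

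The 5 measured keratins fell into 3 patterns. KRT14 and KRT16 were high in HPDE alone, KRT5 and KRT15 were high in both L3.6 and HPDE, and KRT13 was high in L3.6 alone. KRT5 was also above the level filter in SU86.86. Levels are given as log2(intensity + 71.1), the constant being the 25th percentile of all values, and differences are differences of these levels. A level of 7.72 was the median of all probe sets and served as the level filter. For dim genes the constant makes a difference smaller than the fold change behind it. In these bulk samples, fewer cells with a transcript and less of it per cell cannot be told apart.

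**Figure D1:**
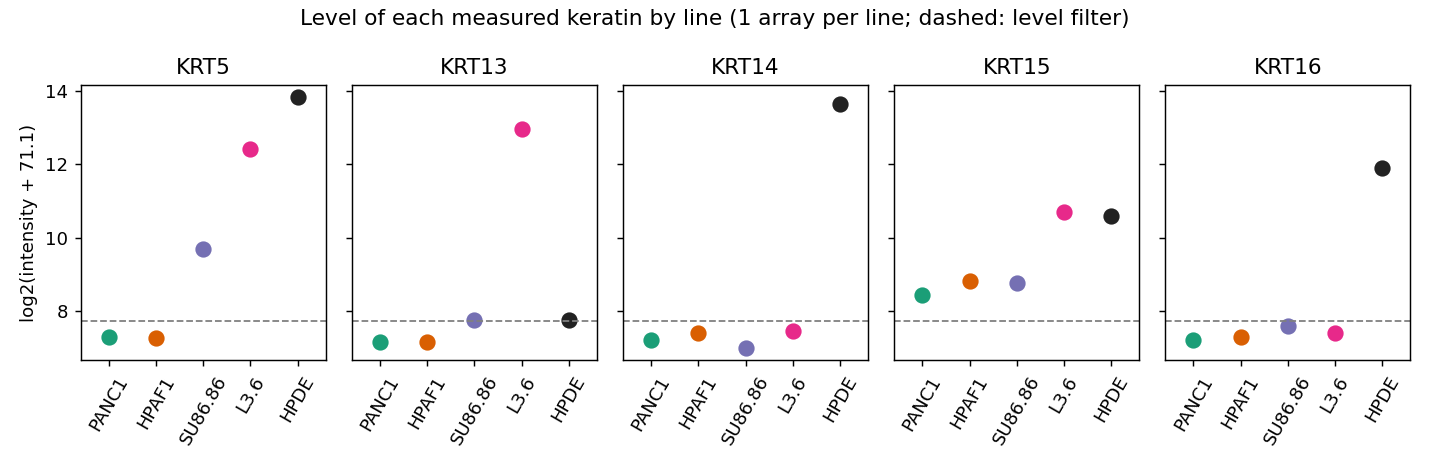
Level of KRT5, KRT13, KRT14, KRT15 and KRT16 (vertical axis, log2 of intensity + 71.1) in each of the 5 lines (horizontal axis), 1 point per array, with the level filter of 7.72 dashed. KRT14 and KRT16 stand high in HPDE alone, at 13.64 and 11.90, KRT13 in L3.6 alone, at 12.97, and KRT5 and KRT15 in both.

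KRT14, the type I partner of KRT5 in basal cells, was read by probe set 209351_at. Its deposited intensity was 75.1 in PANC1, 96.3 in HPAF1, 103 in L3.6 and 55.7 in SU86.86, against 12717 in HPDE. The 4 carcinoma lines lay below the level filter, at levels of 6.99 to 7.44, and did not overlap with HPDE at 13.64. The carcinoma lines averaged 7.25 ± 0.21 (SD, n = 4), and their mean was below HPDE by a fitted difference of -6.39 (SE 0.25, limma adjusted p = 0.0378). HPDE stood 6.20 above L3.6, the next line, the widest such gap of HPDE above every other line among the 14896 genes in the fit, also without the added constant. The size of that gap rests on readings below the level filter in the carcinoma lines.

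KRT16, the keratin of activated keratinocytes, was read by probe set 209800_at. Its intensity was 75.2 in PANC1, 85.6 in HPAF1, 98.1 in L3.6 and 122 in SU86.86, against 3756 in HPDE. Again the carcinoma lines were all below the level filter and apart from HPDE, with levels of 7.19 to 7.59 against 11.90. The mean of the carcinoma lines, 7.37 ± 0.17 (SD, n = 4), differed from HPDE by -4.53 (SE 0.23, limma adjusted p = 0.0393). The gap of 4.31 between HPDE and SU86.86, the next line, ranked 4th among the 14896 genes, or 5th without the constant. As for KRT14, the gap, SE and p rest on carcinoma readings below the level filter, and the gene entered the fit through HPDE alone. KRT14 and KRT16 had the most similar profiles of the 10 pairs of measured keratins: after each was centred on its own mean, their levels differed by a mean of 0.59 over the 5 lines. This measure is not scaled to the range of a gene, and both genes were above the level filter in HPDE alone. Both genes belong to a group of type I keratins with very similar sequences, and how far each probe set reads its relatives was not tested.

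In the fit KRT14 and KRT16 fell under the limma threshold of 0.05, both lower in the carcinoma lines, where 0.0269% of all genes did so. This count is given as a description and is no support for a difference, since both genes entered the fit through the single HPDE array, the only one in which they were above the level filter. With no level filter their limma adjusted p-values were 0.0227 for KRT14 and 0.0411 for KRT16. No measured keratin passed in the other direction, where 0% of all genes did. The fit set the 4 carcinoma lines against 1 HPDE array and takes HPDE to vary as they do. For both keratins the SE and p rest on the spread of 4 readings below the level filter, which is not the spread of a measured level. Without the added constant the adjusted p was 0.0744 for KRT14 and 0.0965 for KRT16, and 0 genes passed with any 1 of the 4 carcinoma lines left out, KRT14 then having adjusted p-values of 0.0999 to 0.276 and KRT16 of 0.109 to 0.287 by limma. In each of those fits, as in the full one, KRT14 and KRT16 had an unadjusted p under 0.05, as did 8.23% of all genes with all lines in. An exact permutation test of 1 array against 4 cannot give a p below 0.2.

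KRT5, the type II keratin of basal cells, was graded across the lines. Probe set 201820_at had an intensity of 86.2 in PANC1, 81.8 in HPAF1, 5370 in L3.6 and 750 in SU86.86, against 14448 in HPDE. In order of level, HPAF1 (7.26) and PANC1 (7.30) were below the filter and 0.04 apart, followed by SU86.86 (9.68), L3.6 (12.41) and HPDE (13.83). L3.6 minus HPDE was -1.42, and L3.6 minus SU86.86 was 2.73. The carcinoma lines averaged 9.16 ± 2.44 (SD, n = 4), and their difference from HPDE of -4.66 (SE 2.19) had a limma adjusted p of 0.685. The carcinoma lines themselves spanned 5.15, the difference of L3.6 from HPAF1. Without L3.6 the difference from HPDE was -5.75, again without passing (limma adjusted p = 0.605).

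The 250 bases before the KRT5 start site are shown because KRT5 is the basal keratin that was graded across the lines and the 1 measured member whose promoter was listed. They are chr12:52520395-52520644 of GRCh38.p14, minus strand, from RefSeq, printed 5′ to 3′ with a match to the p53-family half-site in capitals.
KRT5: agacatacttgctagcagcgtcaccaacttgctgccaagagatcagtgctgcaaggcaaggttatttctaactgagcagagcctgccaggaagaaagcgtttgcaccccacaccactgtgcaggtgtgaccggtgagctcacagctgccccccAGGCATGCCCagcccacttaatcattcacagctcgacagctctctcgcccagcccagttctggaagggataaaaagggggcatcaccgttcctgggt
The match begins 97 bases before the start site. The half-site, which p63 also recognises, was searched on both strands by its consensus, and 5.57% of 35116 listed promoters of this length hold a match. On both strands TATAAA, 1 form of the TATA box, held by 10.7% of promoters, had no match in this window. TGANTCA, a site of AP-1 factors held by 6.57%, and GGGCGG, a GC box held by 42.6%, had none either. Only these exact strings were searched, so other forms of a TATA box would be missed. The window does hold ataaaa. Binding of p63 was not measured on these arrays.

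KRT15, a type I keratin of basal cells and of hair follicle stem cells, was the 1 measured keratin above the level filter in all 5 lines. Probe set 204734_at had an intensity of 276 in PANC1, 377 in HPAF1, 1588 in L3.6 and 366 in SU86.86, against 1463 in HPDE. L3.6 and HPDE were close together, at 10.70 and 10.58, and PANC1, HPAF1 and SU86.86 lay between 8.44 and 8.81. The mean difference between carcinoma lines and HPDE was -1.41 (SE 0.93, limma adjusted p = 0.816). L3.6 minus HPDE was 0.11, which 1 array on each side cannot tell from 0. The carcinoma lines averaged 9.18 ± 1.03 (SD, n = 4). Without L3.6 their mean difference from HPDE was -1.91.

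KRT5 and KRT15 were the 2 of the 5 measured keratins for which L3.6 and HPDE both stood at least 2-fold above each of PANC1, HPAF1 and SU86.86, a pattern shared by 40 genes, 0.269% of all tested. By the width of that gap KRT5 ranked 3rd, with 2.73, and KRT15 ranked 11th, with 1.78. Without the constant they ranked 7th and 16th. L3.6 had KRT5 at a high level with KRT14 at 7.44, below the level filter. Of the measured type I keratins of basal cells, L3.6 had KRT15 and not KRT14 at a high level.

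KRT13, the type I keratin of moist stratified epithelia above the basal layer, was read by probe set 207935_s_at, whose suffix marks a possible match to several transcripts. Its intensity was 70.6 in PANC1, 71.0 in HPAF1, 7952 in L3.6 and 143 in SU86.86, against 146 in HPDE. L3.6 stood alone at a level of 12.97, while SU86.86 (7.74) and HPDE (7.76) were at the level filter and PANC1 and HPAF1 (both 7.15) were below it. L3.6 minus HPDE was 5.21, or 5.77 without the constant, and in both cases the widest gap of L3.6 above the next line among the genes in the fit. Its size rests on readings at or below the level filter in the other lines. KRT13 was the 1 measured keratin at least 2-fold above each of the other lines in L3.6, as were 0.53% of all genes. The carcinoma lines averaged 8.75 ± 2.83 (SD, n = 4), and their difference from HPDE of 0.99 (SE 2.53, limma adjusted p = 0.961) became -0.41 without L3.6. Among 6 fibroblast markers COL1A2, a collagen chain, was also highest in L3.6, at 9.91, and at most 7.59 in the other lines, HPDE included. COL1A1, another collagen chain, was highest in PANC1, at 10.78, with 10.57 in L3.6 and 10.17 in HPDE. COL3A1 was highest in PANC1, LUM in HPAF1 and DCN in L3.6. The summed intensity of the 6 markers was 2955 in L3.6, against 1606 to 2418 in the other lines, and DCN, LUM and COL3A1 ranged over at most 0.35 across the 5 lines. A relation of these markers to the KRT13 level was not tested.

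Set against HPDE alone, PANC1, HPAF1 and SU86.86 gave the same counts and L3.6 another. In PANC1, 4 of the 5 keratins were at least 2-fold lower and 0 higher, where 9.26% of all genes were lower and 8.47% higher. HPAF1 likewise had 4 lower and 0 higher, against 9.27% and 7.77% of all genes. SU86.86 had 4 lower and 0 higher, against 7.72% and 8.44%. L3.6 had 3 lower, KRT5, KRT14 and KRT16, and 1 higher, KRT13, against 8.59% and 6.55%. These 3 lower keratins were at least 2-fold below HPDE in all 4 lines, as were 2% of all genes. By the mean of the carcinoma lines 4 of 5 were at least 2-fold lower, against 6.48% of all genes, and 0 higher, against 5.57%. The median difference of the 5 was -4.53, against 0.03 for all genes. The 4 differences share the HPDE array. The keratins were chosen with earlier results of these arrays known, so these shares describe the genes and do not test them.

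**Figure D2:**
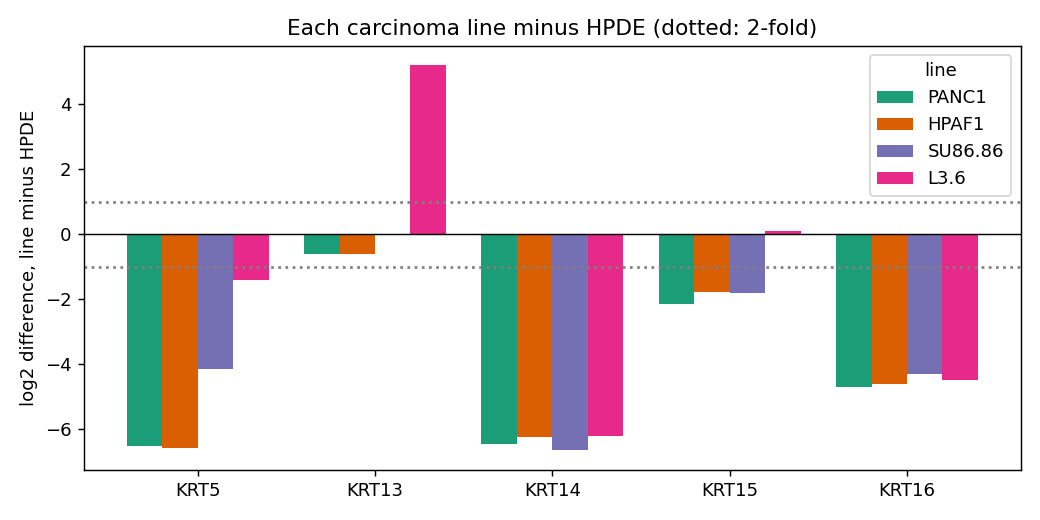
Difference of each carcinoma line from HPDE (vertical axis, log2 difference) for KRT5, KRT13, KRT14, KRT15 and KRT16 (horizontal axis), 1 bar per line, with dotted lines at 2-fold. KRT14 and KRT16 are similarly low in all 4 lines, KRT5 runs between -6.57 in HPAF1 and -1.42 in L3.6, and KRT13 is 5.21 higher in L3.6.

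The type I keratin genes of the set lie in 1 cluster on chromosome 17 and KRT5 lies in the type II cluster on chromosome 12. In the RefSeq annotation of GRCh38.p14 KRT13 and KRT15 are neighbouring protein-coding genes, followed by KRT19, KRT9, KRT14, KRT16 and KRT17. KRT14 and KRT16, also neighbours, were the 2 measured keratins that were high in HPDE alone. KRT13 and KRT15 were both high in L3.6, but KRT15 was also high in HPDE and KRT13 was not. KRT19, a duct keratin that lies next to KRT15, followed neither pattern, with 9.84 in PANC1, 14.32 in HPAF1, 13.40 in L3.6 and 13.52 in SU86.86, against 12.67 in HPDE. KRT9, a keratin of palm and sole skin between KRT19 and KRT14, ranged over 0.10 across the 5 lines.

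The genes whose levels followed each keratin most closely were taken among 2018 genes that, like the keratins, ranged over at least 2 log2 units, by the mean absolute difference of centred levels over the 5 lines. Nearest to KRT5 was TRIM29, a tripartite-motif protein of basal epithelia (mean difference 0.63), at 7.53 in PANC1, 7.91 in HPAF1, 11.65 in L3.6 and 9.94 in SU86.86, against 12.70 in HPDE. Like KRT5 it was intermediate in SU86.86. CSTA, a protease inhibitor of the cornified envelope (0.79), and the transcript annotated to MIR205, the gene of a microRNA of basal epithelia (0.83), came next. MIR205 was at 10.28 in L3.6 and at most 7.36 in the other carcinoma lines, against 12.66 in HPDE. The probe set reads that gene's transcript and not the mature microRNA.

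Nearest to KRT15 were RXRA, a retinoid receptor, at 0.13, LDOC1 at 0.16 and PLEKHG4 at 0.19. The measure is not scaled to the range of a gene, and KRT15 had the narrowest range of the 5 keratins, 2.26 against 4.71 to 6.66, so these distances are not comparable between keratins. RXRA stood at 11.16 in L3.6 and between 9.14 and 9.78 in the other carcinoma lines, against 11.19 in HPDE. For KRT16 the nearest were the D-type cyclin CCND2 (0.16), the desmosomal plaque protein PKP1 (0.21) and the matrix glycoprotein SPARC (0.27). KRT14 lay nearest to S100A8, a calprotectin subunit (0.46), CCND2 (0.56) and SPARC (0.78). Nearest to KRT13 were STC1, a secreted glycoprotein (0.74), NNMT, which methylates nicotinamide (0.91), and the inflammasome protein NLRP2 (0.91), all highest in L3.6, where STC1 was at 10.78, against at most 7.64 in the other lines, HPDE included.

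**Figure D3:**
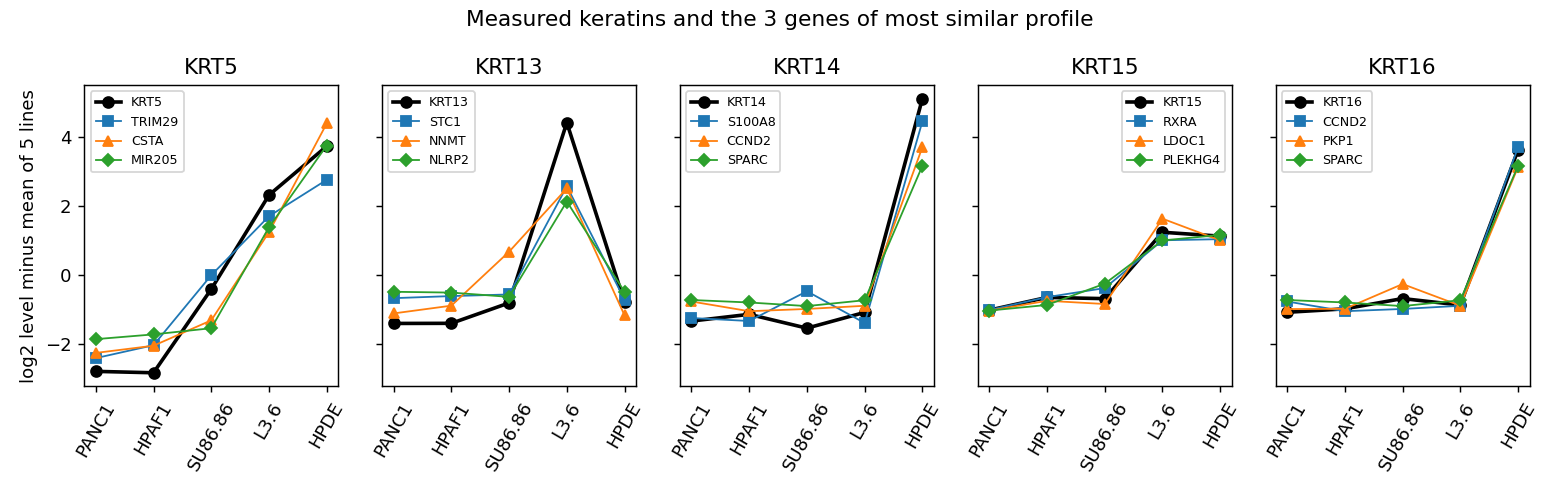
Levels of each measured keratin (black) and of the 3 genes of most similar profile (coloured), each minus its own mean over the 5 lines (vertical axis, log2), by line (horizontal axis). TRIM29, CSTA and MIR205 climb with KRT5 through L3.6 to HPDE, and the genes nearest to KRT13 are highest in L3.6.

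No other listed keratin of stratified, cornified or hair epithelium passed the test. Of 17 listed, 13 had a probe set and 7 passed the level filter, which a gene could pass through 1 line alone. Of the 7, 1 was at least 2-fold lower in the carcinoma lines and 0 higher, against 6.48% and 5.57% of all genes. By limma 0 passed and 1 had an unadjusted p under 0.05, against 8.23% of all genes. The median difference was 0.01, against 0.03 for all genes. KRT75, a hair follicle keratin, was at 7.08 to 7.15 in PANC1, HPAF1 and SU86.86 and 7.78 in L3.6, against 9.15 in HPDE, a difference of -1.88 (SE 0.35, limma adjusted p = 0.358). KRT4, the usual type II partner of KRT13 in moist epithelia, was 7.61 in L3.6, 9.36 in SU86.86 and at most 6.97 in PANC1 and HPAF1, against 7.71 in HPDE, so it was not high in the line where KRT13 was. KRT10, a keratin of the layers above the basal layer of skin, was at 11.83 to 13.02 and ranged over 1.19. KRT1, its partner in skin, ranged over 0.47.

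The simple epithelial keratins of duct cells differed between lines in another order. Of 7 in the fit, 3 were at least 2-fold higher in the carcinoma lines than in HPDE and 0 lower. Of all genes, 5.57% were higher and 6.48% lower. The median difference was 0.10, against 0.03 for all genes. By limma 0 passed and 0 had an unadjusted p under 0.05, against 8.23% of all genes. KRT7 was at 7.51 in PANC1 and between 12.88 and 13.62 in HPAF1, SU86.86 and L3.6, against 12.15 in HPDE. KRT23 ranged from 6.84 in PANC1 to 12.77 in HPAF1, against 9.67 in HPDE. KRT20, a keratin of intestinal epithelium, was at 12.10 in HPAF1 and at most 6.88 elsewhere, HPDE included. Of the 7, 0 had their highest level in HPDE, against 22% of all genes. HPDE thus had a signal for KRT5, KRT14, KRT15 and KRT16 together with KRT7 (12.15), KRT8 (11.29), KRT18 (13.23) and KRT19 (12.67). The duct and simple epithelial markers KRT7, KRT8, KRT18, KRT19, EPCAM, CDH1 and SOX9 were above the level filter in all lines, except KRT7 in PANC1. Neither of the 2 acinar markers with a probe set reached the filter in any line. Of 3 markers each with a probe set, 1 endocrine and 1 endothelial marker, and 1 or 2 leukocyte markers, were above it in each line.

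No listed transcription factor of stratified epithelium and no listed p63 target or basal marker passed the test. BNC1 is on both lists and counts in both. The highest level was in HPDE for 9 of 14 factors and 9 of 15 targets or basal markers, as for 22% of all genes. L3.6 was highest of the carcinoma lines for 7 of the factors and 5 of the targets or basal markers, as for 25.1% of all genes. Among these factors ZNF750 and BNC1 were below the level filter in all carcinoma lines, and SOX2 and TP73 ranged over 0.71 and 0.20. The others were SOX15, TFAP2A and KLF5. Of the 14 factors in the fit, from 17 listed, 11 were at least 2-fold lower in the carcinoma lines and 0 higher, against 6.48% and 5.57% of all genes, with a median of -1.65, against 0.03. By limma 0 passed and 5 had an unadjusted p under 0.05, against 8.23% of all genes. SOX15, a SOX factor found in keratinocytes, had the KRT5 order, at 7.25 to 7.65 in PANC1, HPAF1 and SU86.86 and 10.61 in L3.6, against 11.93 in HPDE. GRHL1, a grainyhead factor of epidermal differentiation, was at 7.73 to 9.42 in the carcinoma lines, L3.6 among them at 8.56, against 11.30 in HPDE. KLF5, a factor of basal and gut epithelium, was low in PANC1 (7.58) and between 11.73 and 12.23 in HPAF1, SU86.86 and L3.6, against 12.75 in HPDE. TFAP2C, an AP-2 factor, was highest in PANC1, at 10.26, and lowest in HPAF1, at 6.60, against 9.95 in HPDE. TP73, a p53-family relative of p63, ranged over 0.20 across the lines.

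Of 15 p63 targets and basal markers in the fit, from 17 listed, 10 were at least 2-fold lower in the carcinoma lines and 0 higher, against 6.48% and 5.57% of all genes, with a median of -1.83. By limma 0 passed and 6 had an unadjusted p under 0.05, against 8.23% of all genes. Genes of both lists could enter the fit through HPDE alone. S100A2, a calcium-binding protein induced by p63, was highest in L3.6, at 14.42, with 11.63 in SU86.86, 9.52 in PANC1 and 8.37 in HPAF1, against 12.84 in HPDE. P-cadherin, CDH3, was at 7.46 in PANC1 and 10.16 to 10.81 in HPAF1, SU86.86 and L3.6, against 12.53 in HPDE. PKP1 had a profile near that of KRT16, at 7.54 to 8.27 in the carcinoma lines against 11.66 in HPDE. The hemidesmosome, which ties basal keratins to the matrix, had 6 genes in the fit. In the carcinoma lines 1 was at least 2-fold lower and 1 higher, against 6.48% and 5.57% of all genes. The median difference was 0.50, against 0.03 for all genes. By limma 0 passed and 1 had an unadjusted p under 0.05, against 8.23% of all genes. The hemidesmosome integrin chain ITGB4 was at 7.59 in PANC1 and 10.94 to 12.12 in HPAF1, SU86.86 and L3.6, against 11.49 in HPDE. The laminin chain LAMB3 was at 7.53 in PANC1 and 10.87 to 12.31 in HPAF1, SU86.86 and L3.6, against 12.10 in HPDE. CD151, a tetraspanin of hemidesmosomes, was at 11.34 to 12.18 in the carcinoma lines against 9.98 in HPDE, and the integrin chain ITGA6 was at 11.26 to 13.00 against 12.19.

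**Figure D4:**
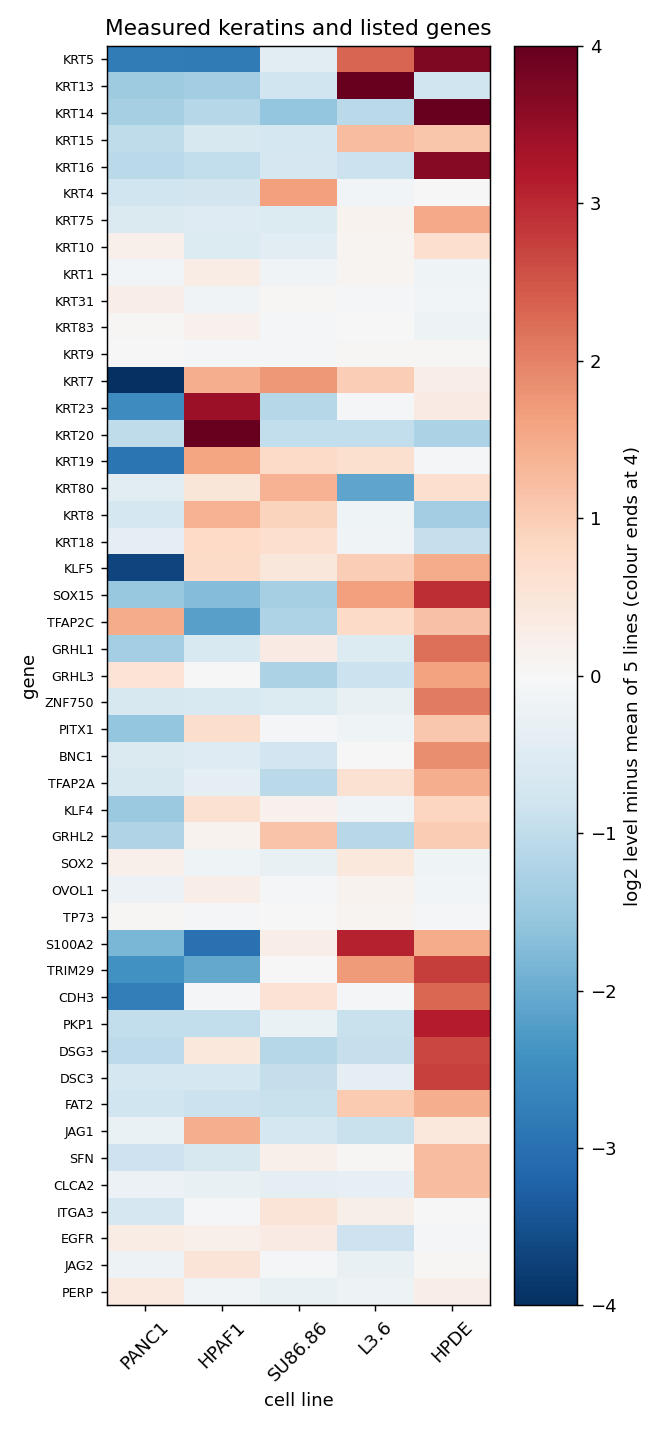
Levels of the 5 measured keratins (top rows), other keratins, listed transcription factors and listed p63 targets or basal markers (rows) in the 5 lines (columns). Each is minus its own mean over the lines, with red high and blue low and the colour ending at 4 log2 units. HPDE is red for many of the lower rows, and KRT13 is red in L3.6 alone.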

How the data were processed

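The deposited table holds linear intensity values, as the values themselves show. The authors' summarisation, scaling and background correction are not given in the sources used here. Array medians lay between 137 and 143, and their log2 values spanned 0.06, under a tolerance of 0.25, so no further normalization was applied. Genes came from GEO's platform annotation, with symbols updated through RefSeq (GRCh38.p14). Of 54675 probe sets, 41091 had 1 symbol, 1801 several and 11721 were not listed, besides 62 controls. Of the first, 41037 were matched by gene ID. The probe set of highest mean was kept per gene, and genes whose highest line reached the median of all probe sets (intensity 140) were kept, 14896 in all. The fit used limma 3.58.1 in R 4.3.3, two-sided, with Benjamini-Hochberg adjustment over these genes and 3 residual degrees of freedom; it was tested on simulated data. Its p-values rest on the spread between the 4 carcinoma lines, not between cultures, and HPDE, with 1 array, adds nothing to it. For KRT14 and KRT16 that spread is one of readings below the level filter. Pairs of single arrays were described by size, at 2-fold or more. Named genes were all measured members, the 3 genes of most similar profile for each, and up to 4 genes of widest range per list, with a few more members of a list named after their values were seen. Members and lists were chosen with earlier results of these data known. The number of arrays limits the precision.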

Additional observations from a re-analysis of the deposited data

Results flagged for a closer look

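Over the 4 carcinoma lines KRT13 had L3.6 far from the others: the gap to the next line was 0.898 of the whole range, above Dixon's critical value of 0.829. KRT15 was also set apart by L3.6, with a gap of 0.837 of the range. Chance flags about 1 in 20 groups, and 5 keratins were examined. The share of all genes flagged in this way was not computed, so these flags are a description and no excess over chance. For KRT13 the other carcinoma readings were at or below the level filter, and KRT15 passed the critical value narrowly.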

How the results depend on the processing

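The number of genes past the limma threshold between the carcinoma lines and HPDE, 4 in the fit reported, was 0 without the added constant and 1 each with the stricter level filter, the mean of all probe sets or probe sets without the suffixes for several transcripts. The 2 keratins became 0 without the added constant (1126 genes then had an unadjusted limma p under 0.05, KRT14 and KRT16 among them) and 1, KRT14, with each of those other 3 settings and with every probe set fitted by itself. With 1 carcinoma line left out both counts ranged from 0 to 0, with 1034 to 1751 genes at an unadjusted p under 0.05. The counts of keratins at least 2-fold apart from HPDE, by the mean or in each line, lay between 3 and 5 under all alternatives run. Why the calls were lost without the constant was not tested. Leaving a line out removes a residual degree of freedom. The difference of KRT13 ranged from -0.41, without L3.6, to 1.53, without PANC1. Across the alternatives the differences of KRT14 lay between -7.31 and -5.86 (adjusted p 0.0227 to 0.276), of KRT16 between -5.33 and -4.05 (0.0263 to 0.287), of KRT5 between -5.75 and -4.03 and of KRT15 between -1.91 and -1.16, and KRT5, KRT13 and KRT15 passed limma in none. KRT13 had no value with probe sets without those suffixes. No paired analysis was possible because each line has 1 array.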
